A study of Mus musculus with 18 samples.

Results

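7 collagen chain genes (*Col1a1*, *Col1a2*, *Col3a1*, *Col5a2*, *Col4a1*, *Col4a2* and *Col6a1*) and 3 genes used as markers of hepatic stellate cells and other mesenchymal cells (*Dcn*, *Rgs5* and *Des*) were followed in mouse liver RNA. They make up 10 of the 22524 genes listed in the deposited count tables, and all 10 were among the 13353 genes with enough reads to be tested. They were picked by symbol, with the difference between A226Y and wild-type mice already known, because the fibrillar collagens were lower while *Dcn* and *Rgs5* were not. That difference is therefore described for these 10 genes without support from a test, and the 1 count of their calls is set beside that of all genes only as background.

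The A226Y group held 10 female C57BL/6 mice aged 15 months that were heterozygous for *Rps2*-A226Y, a ribosomal ambiguity mutation that makes translation less accurate. The WT group held 8 females of the same strain and age that expressed the same ubiquitous CMV-Cre transgene and had wild-type *Rps2*. Each mouse gave 1 library of total RNA from frozen liver tissue. The mutant allele sits behind a floxed transcriptional stop. The study's methods describe the mutants as mosaic, with the stop removed in part of the cells. In these libraries, unexcised, silent copies of *Rps2* therefore cannot be told apart from the effect of the mutation. The paper also compared haploinsufficient *Rps2* loxP/WT livers with their own wild types. It reports far fewer differing genes there than in A226Y, with little overlap, and infers effects of the mutation beyond haploinsufficiency. Those livers are not among the mice used here.

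Fibrillar collagens (types I, III and V) assemble into the tensile fibers of the interstitial matrix, type IV forms the meshwork of basement membranes, and type VI forms beaded filaments around cells. In the liver most fibrillar collagen is made by hepatic stellate cells, the vitamin A-storing pericytes of the sinusoids, and by portal fibroblasts, and their output rises when stellate cells turn into myofibroblasts during fibrosis. Decorin (*Dcn*) is a small leucine-rich proteoglycan that binds collagen fibrils, *Rgs5* encodes a regulator of G-protein signalling found in pericytes, and desmin (*Des*) is the intermediate filament of stellate and muscle cells. None of the 10 genes belongs to stellate cells alone, since endothelial cells, portal fibroblasts and vascular smooth muscle also express several of them.

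Libraries held 23850565 to 62126131 counts in the A226Y group and 25869192 to 34918732 in the WT group. *Rps2*, the targeted gene, ranged from 46.9 to 83.0 CPM (read counts scaled to a common library size with TMM) in the A226Y mice and from 104 to 143 CPM in the WT mice, so the groups did not overlap. 3 libraries stood apart. A226Y animal 23 had the highest total count, with at most 34918732 in any other library, and the lowest share of mitochondrial reads (2.77%). A226Y animal 29 had the highest slope of expression on GC content (0.186 log2 units per 10 percentage points of GC, where 8 of the 10 A226Y and 2 of the 8 WT libraries had a negative slope), and WT animal 33 had the lowest TMM scaling factor (0.894) and the largest share of reads in its 10 most abundant genes (25.1%). The slope of expression on transcript length also moved with genotype, being negative in 7 of 8 WT libraries (median −0.028 log2 units per doubling of length) and in 1 of 10 A226Y libraries (median 0.032), and the part of either slope in the differences was not tested. Each difference described here was also computed without these mice and with corrections for length and GC content. The same total RNA signal can come from fewer cells of a type or from less RNA per cell, and bulk libraries cannot tell these apart.

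Per kilobase of exon, the 10 genes spanned a wide range of levels in normal liver. In WT mice *Dcn* had the highest mean level, 37.3 ± 3.79 RPKM (CPM per kilobase of annotated exon; SD, n = 8), above 91.5% of all tested genes. *Rgs5* followed with 12.3 ± 1.71 RPKM, and the WT ranges of these genes overlapped neither each other nor those of the remaining members. The basement membrane chains came next, *Col4a1* with 2.62 ± 0.427 RPKM and *Col4a2* with 1.86 ± 0.212 RPKM. *Col4a1* was the higher of the pair in all 8 WT and all 10 A226Y mice, although the ranges of the 2 genes overlapped. *Col6a1* had 1.73 ± 0.207 RPKM and *Des* 1.35 ± 0.157 RPKM, and the neighbours *Col4a2*, *Col6a1*, *Des* and *Col3a1* overlapped in range with the next in order, as did each gene further down.

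Per annotated exon length, the fibrillar chains were the lowest of the set. That length exceeded the longest coding transcript unevenly, at 12426 against 5348 bases for *Col1a2* and 9816 against 5564 for *Col3a1*. For *Col4a2* it was 6619 against 6450 bases. The order of the genes and the ratios between them therefore depend on the length used, and levels per transcript length are not given. *Col3a1*, which forms the homotrimer of type III collagen, had 1.17 ± 0.298 RPKM in WT liver, and *Col1a2* and *Col1a1*, the chains of type I collagen, had 0.650 ± 0.0967 and 0.400 ± 0.105 RPKM. *Col5a2*, a chain of the type V collagen that nucleates fibrils, had 0.207 ± 0.0455 RPKM and exceeded only 8.5% of the tested genes. At these depths *Col1a1* was represented by 24 to 127 reads per mouse and *Col5a2* by 30 to 98, against 5524 to 14144 reads for *Dcn*, so counting error enters the spread of the fibrillar chains far more than that of *Dcn*.

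**Figure D1:**
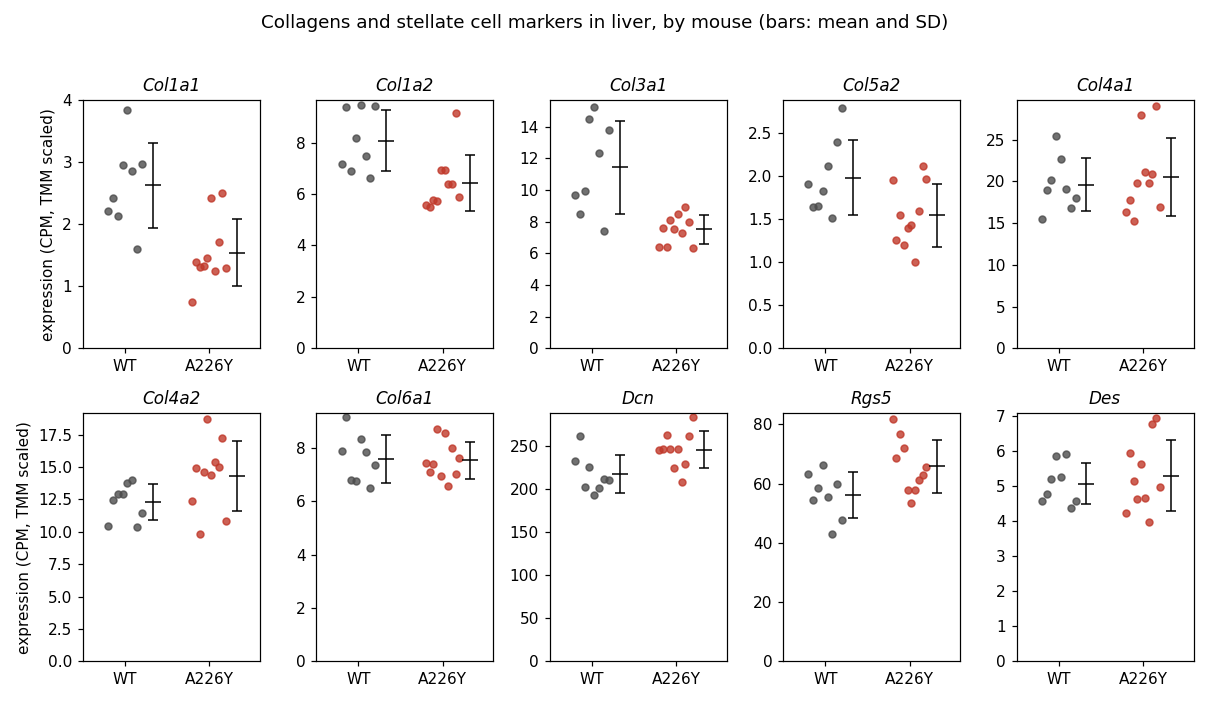
Expression of each of the 10 genes (CPM after TMM scaling, y axis from 0) in every WT mouse (grey, n = 8) and every A226Y mouse (red, n = 10), with the group mean and SD beside the points. For *Col1a1* 7 of the A226Y mice lie below every WT mouse, while the A226Y points of *Col6a1* lie within the WT range and those of *Des* reach beyond it on both sides.

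*Col1a1* had the largest fold difference among the 10 genes. Its level in the WT mice had a lowest, median and highest value of 1.597, 2.64 and 3.85 CPM, and in the A226Y mice of 0.744, 1.35 and 2.50 CPM. All 10 A226Y mice were under the WT mean and 7 were under the lowest WT mouse, but A226Y animals 18, 23 and 29, at 2.42, 1.71 and 2.50 CPM, lay within the WT range. The log2 fold change (A226Y minus WT) was −0.77 (standard error 0.20), a ratio of 0.588.

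*Col3a1* had the next largest difference. WT mice had a lowest, median and highest value of 7.44, 11.2 and 15.3 CPM, against 6.33, 7.56 and 8.95 CPM in the A226Y mice. The groups overlapped: 4 A226Y mice were below every WT mouse and 6 WT mice above every A226Y mouse. The spread was also narrower in the mutants, with a coefficient of variation of 12.1% against 25.6% in WT, and the log2 fold change was −0.60 (standard error 0.13), a ratio of 0.658.

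*Col1a2*, the partner of *Col1a1* in type I collagen, differed by less. Its lowest, median and highest values were 6.64, 7.84 and 9.46 CPM in WT and 5.50, 6.14 and 9.14 CPM in A226Y. Of the A226Y mice, 7 were below every WT mouse, and animal 29 alone was above the WT mean. The log2 fold change was −0.33 (standard error 0.10), and without animal 29 it was −0.40. Because the chains differed unequally, the RPKM of *Col1a1* relative to *Col1a2* had a median of 0.591 in WT (0.455 to 0.771) and of 0.434 in A226Y (0.252 to 0.661), with 6 A226Y mice below every WT mouse.

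*Col5a2* had a lowest, median and highest value of 1.51, 1.87 and 2.80 CPM in WT and of 1.002, 1.49 and 2.12 CPM in A226Y. The groups overlapped, with 5 A226Y mice below every WT mouse. Its log2 fold change of −0.36 (standard error 0.16) was of the size of that of *Col1a2*, with a wider error. Relative to *Col1a2* its RPKM had a median of 0.3 in WT and 0.298 in A226Y.

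Of the 10 genes, 3 (*Col1a1*, *Col1a2* and *Col3a1*) were called (adjusted p under 0.05 over all tested genes), all 3 lower in A226Y. Over all tested genes 14.3% passed in either direction, 7.03% as lower and 7.27% as higher, and since the genes were picked on this contrast their count restates the choice and nothing is read from it. It was also unstable, at 0 to 4 over the alternatives, with 0 for the surrogate variables. *Col1a2* lost its call in 12 of the 18 fits that dropped 1 mouse and with library size only or the GC correction. *Dcn* passed with DESeq2, with the length correction and without WT animal 6, and *Col4a2* with the GC correction. When any 1 mouse was dropped, the log2 fold change lay between −0.87 and −0.67 for *Col1a1*, −0.67 and −0.53 for *Col3a1*, −0.40 and −0.29 for *Col1a2* and −0.42 and −0.27 for *Col5a2*. With 4 surrogate variables as covariates it was −0.27 for *Col3a1* and −0.65 for *Col1a1*. No gene of the set separated the genotypes completely, as 0.285% of all tested genes did with every A226Y mouse below every WT mouse and 0.352% with every A226Y mouse above.

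RefSeq promoter sequence (GRCm38.p6) was at hand for 7 of the 10 genes. The stretch before the start is shown for *Col1a2* and *Col3a1*, the fibrillar chains with a sequence, and for *Rgs5*, the mesenchymal marker with the largest positive log2 fold change, 5′ to 3′ on the plus strand along which all 3 genes run. *Col3a1* (chr1:45311288-45311537) and *Rgs5* (chr1:169655251-169655500) are shown for 250 bases before the start, and *Col1a2* (chr6:4505370-4505492) for the 123 bases of that stretch outside annotated exons. Capitals mark the TATA box (letters TATAAA), the CCAAT box (letters CCAAT) and the GC box (letters GGGCGG) on either strand.
*Col3a1*: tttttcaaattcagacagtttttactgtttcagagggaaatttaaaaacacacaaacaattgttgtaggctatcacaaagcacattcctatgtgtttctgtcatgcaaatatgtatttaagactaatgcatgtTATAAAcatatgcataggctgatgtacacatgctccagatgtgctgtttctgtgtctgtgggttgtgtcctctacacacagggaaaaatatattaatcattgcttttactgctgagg
*Col1a2*: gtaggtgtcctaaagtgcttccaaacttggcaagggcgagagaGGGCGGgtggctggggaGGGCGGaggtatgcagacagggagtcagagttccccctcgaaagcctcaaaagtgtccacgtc
*Rgs5*: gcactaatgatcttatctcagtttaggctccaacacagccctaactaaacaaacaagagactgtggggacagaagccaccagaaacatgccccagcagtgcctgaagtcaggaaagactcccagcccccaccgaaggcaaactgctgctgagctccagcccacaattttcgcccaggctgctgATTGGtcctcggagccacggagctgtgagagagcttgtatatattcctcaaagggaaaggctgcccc

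The fibrillar promoters shared none of these motifs. *Col3a1* held a TATA box at −117 (−1 is the base before the start), which 12.4% of all 32851 promoters have within 250 bases. *Col1a2* held GC boxes at −205 and −188, as 32.7% of promoters have at least 1, and a CCAAT box at −109, outside the stretch shown. *Rgs5* held a CCAAT box on the reverse strand at −67, a motif found in 33.8% of promoters. In base composition they differed as well, with a GC content of 35.2% and no CpG for *Col3a1*, 62% and 11 CpG for the full 250 bases of *Col1a2*, and 53.6% and 4 CpG for *Rgs5*, against a median of 52.4% and 6 CpG over all promoters. Of the other members with sequence, *Des* held GC boxes at −87 and −69, *Col4a1* a CCAAT box at −145, and *Col4a2* a CCAAT box at −32 and GC boxes at −192 and −48. *Col6a1* held none of the 3 letter strings in its window. These matches describe the letters and say nothing about binding.

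The type IV chains did not share the direction of the fibrillar chains. *Col4a1* had a lowest, median and highest value of 15.6, 19.0 and 25.4 CPM in WT and of 15.2, 19.8 and 29.1 CPM in A226Y. The A226Y range enclosed that of WT, and the log2 fold change was 0.07 (95% interval −0.18 to 0.31). *Col4a2* had 10.4, 12.7 and 14 CPM in WT and 9.84, 14.8 and 18.7 CPM in A226Y, where 7 mice were above every WT mouse and 1 below. Its log2 fold change was 0.22 (standard error 0.11). *Col4a1* and *Col4a2* start within 22 shared bases of each other on opposite strands of chromosome 8 (11198423 to 11312826 and 11312805 to 11449287 on GRCm38), so a few reads there could be counted for either.

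*Col6a1*, the α1 chain of type VI collagen, was nearly level between the genotypes. Its lowest, median and highest values were 6.48, 7.59 and 9.15 CPM in WT and 6.56, 7.40 and 8.69 CPM in A226Y. The A226Y range lay within that of WT, and the log2 fold change was −0.0080 (95% interval −0.16 to 0.14). Its sign was the least stable of the set, the same in 21 of the 29 alternatives.

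Among the mesenchymal markers, *Dcn* had a lowest, median and highest value of 194, 211 and 262 CPM in WT and of 208, 247 and 284 CPM in A226Y. The groups overlapped, but the WT mean was exceeded by 9 of 10 A226Y mice, and 3 WT mice were below every A226Y mouse. The log2 fold change was 0.18 (standard error 0.07). With the surrogate variables it was 0.04, the lowest of all alternatives.

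*Rgs5* had 43.0, 57.0 and 66.4 CPM in WT and 53.6, 64.2 and 81.8 CPM in A226Y as its lowest, median and highest values. 4 A226Y mice were above every WT mouse and 2 WT mice below every A226Y mouse. The log2 fold change was 0.23 (standard error 0.09) and lay between 0.15 and 0.27 in every alternative. *Des* had 4.38, 4.99 and 5.91 CPM in WT and 3.98, 5.06 and 6.93 CPM in A226Y. The A226Y mice reached beyond the WT range on both sides, 3 above and 2 below, and the log2 fold change was 0.07 (95% interval −0.15 to 0.28).

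Within each mouse, the fibrillar chains were set against *Dcn*. Since the genes were picked because these chains were lower and *Dcn* was not, a lower ratio in A226Y restates that choice. The RPKM ratio of *Col1a1* to *Dcn* had a median of 0.0105 in WT (0.00671 to 0.0177) and of 0.00515 in A226Y (0.00270 to 0.00871), with 8 of 10 A226Y mice below every WT mouse. The ratio of *Col3a1* to *Dcn* had a median of 0.0329 in WT and 0.0189 in A226Y, with 5 A226Y mice below every WT mouse. The ratio of *Rgs5* to *Dcn*, which both had positive log2 fold changes, had medians of 0.357 in WT and 0.349 in A226Y.

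**Figure D2:**
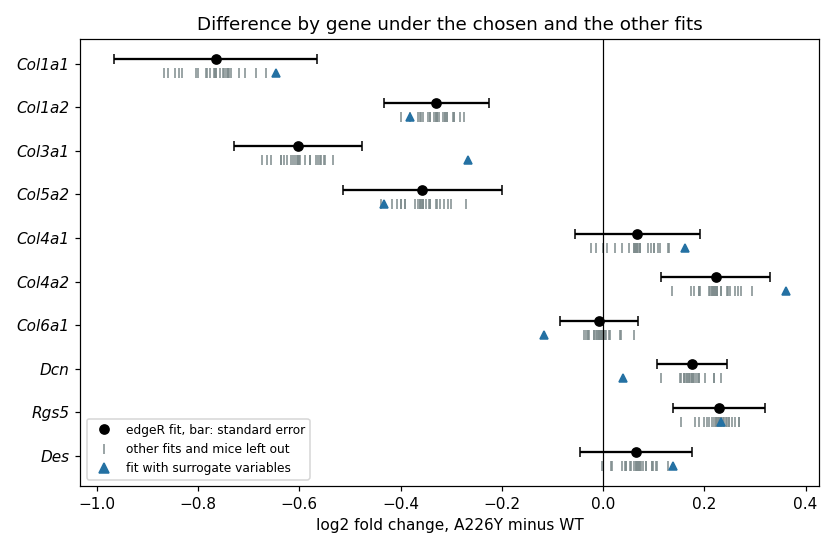
Log2 fold change (A226Y minus WT) of each gene, with the edgeR estimate and its standard error in black, the other fits and the fits with mice left out as grey ticks, and the fit with surrogate variables as blue triangles. The 4 fibrillar chains stay below 0 in all alternatives, *Col4a2*, *Dcn* and *Rgs5* stay above 0, and *Col4a1*, *Col6a1* and *Des* cross it.

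The sign of the difference was the same in all 29 alternatives for the 4 fibrillar chains and for *Col4a2*, *Dcn* and *Rgs5*. It was the same in 26 for *Col4a1* and in 28 for *Des*. The genes also differed in GC content: *Dcn* and *Rgs5* had 42.8% and 41.1%, *Col5a2* 49.6%, and the other collagens and *Des* 52.5% to 60.6%, where the median of tested genes was 50.2%. With a per-library correction for GC content the log2 fold changes were −0.71 for *Col1a1*, −0.27 for *Col1a2*, −0.56 for *Col3a1* and −0.35 for *Col5a2*, and 0.11 for *Dcn* and 0.15 for *Rgs5*. With the correction for transcript length they were −0.83, −0.38, −0.66 and −0.44 for these chains and 0.23 and 0.22 for *Dcn* and *Rgs5*. Without both A226Y animal 29 and WT animal 33 the values were −0.84, −0.36, −0.57 and −0.33 for the same fibrillar chains and 0.16 and 0.21 for *Dcn* and *Rgs5*.

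Variation between mice of the same genotype was not used to pick the genes. After removing each genotype's mean, the log2 levels of *Col1a1*, *Col1a2* and *Col3a1* varied together across the 18 mice, with a mean pairwise Pearson correlation of 0.651. *Col1a1* had r = 0.758 with *Col1a2* (Spearman's rho 0.835, and r = 0.694 without the 2 mice farthest out) and r = 0.726 with *Col3a1* (rho 0.763, 0.817 without those farthest out). *Col1a2* and *Col3a1* were less close, with r = 0.468 (rho 0.534, 0.429 without those farthest out). WT animal 28 was the lowest and WT animal 21 the highest of the WT group for all 3 genes. *Col5a2* was less close to them, with r = 0.289 to *Col1a2*, 0.0510 to *Col1a1* and −0.0370 to *Col3a1*, its neighbour 24614 bases away on chromosome 1.

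*Col4a1* and *Col4a2* had the tightest relation of the set (r = 0.838, rho 0.847), and they also varied with the 3 fibrillar genes, with a mean r of 0.563. *Rgs5* varied against *Col1a1* (r = −0.540) and *Col4a2* (−0.505), and *Dcn* against *Col4a2* (−0.484) and *Col3a1* (−0.411). The correlations of *Col1a1*, *Col1a2* and *Col3a1* with *Dcn* and *Rgs5* averaged −0.283. *Des* had r = 0.557 with both *Col1a1* and *Col4a1* (0.324 and 0.404 without the 2 mice farthest out), 0.0340 with *Dcn* and −0.158 with *Rgs5*. All 18 points share library scaling and base composition between genes: the slope on GC content of each library had r = 0.555 with *Col1a1*, 0.612 with *Col1a2*, 0.0980 with *Col3a1*, 0.547 with *Col4a1*, 0.574 with *Des* and −0.452 with *Rgs5*. The slope on transcript length had r = −0.686 with *Des*, the strongest of the 10 genes, and the part of either slope in these correlations was not tested.

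**Figure D3:**
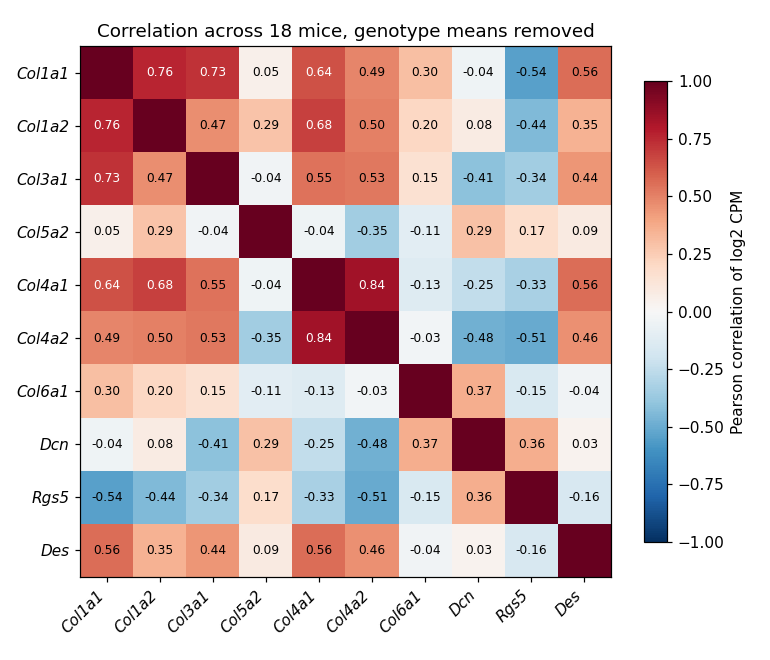
Pearson correlation of log2 CPM between each pair of genes over 18 mice after removal of genotype means, from blue (−1) to red (1). *Col1a1*, *Col1a2*, *Col3a1*, *Col4a1*, *Col4a2* and *Des* form a positive block, *Rgs5* is negative to each gene of it, and *Col5a2* stands outside it.

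Among 11938 genes that averaged 1 CPM or more, *Emilin1*, which encodes an elastin-associated glycoprotein of the matrix, was closest in pattern to the mean of *Col1a1*, *Col1a2* and *Col3a1* (r = 0.824, rho 0.849, n = 18 mice, genotype means removed). *Nckap5l*, *Gm15821*, *Tap2*, *Tmem176b*, *2200002D01Rik*, *Arfgap1*, *Tmem176a* and *Insc* were among the next, down to r = 0.745. *Col4a1* ranked 45 in that order and *Rgs5* 11339. The genes closest to *Dcn* were *Stx5a*, *Acmsd*, *E2f6*, *Tmem199* and *Ms4a4d* (r from 0.805 down to 0.757). *Lsm5*, *Coa5*, *Cd34*, *Zfp948* and *Abi3bp* were closest to *Rgs5* (0.710 down to 0.659), and *Arpc4*, *Ctsd*, *Rrp7a*, *Capzb* and *Nudt3* to *Des* (0.867 down to 0.781).

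Genes around the members were read from lists that share none of them, with edgeR's quasi-likelihood test and Benjamini-Hochberg adjustment over all tested genes. Over all tested genes the median log2 fold change was −0.0044 and 14.3% were called. Of 37 other collagen genes 17 were tested, and 4 passed, 1 higher and 3 lower, with a median of −0.02. *Col27a1*, a fibrillar chain of cartilage, fell (log2 fold change −1.40, standard error 0.29, adjusted p = 0.00478), from a median of 14.3 CPM in WT to 5.26 CPM in A226Y, with overlapping ranges. *Col14a1*, a fibril-associated collagen, fell by 0.38 on the log2 scale (standard error 0.09, adjusted p = 0.0107), and all 10 A226Y mice were under the WT mean. *Col18a1*, a basement membrane collagen made in quantity by hepatocytes, fell by 0.26 (standard error 0.06, adjusted p = 0.0115), but its adjusted p was 0.0588 with the correction for GC content. *Col4a5*, an α5 chain of type IV collagen, rose by 1.04 (standard error 0.28, adjusted p = 0.0187) at a low level (median 0.808 CPM in WT and 1.63 CPM in A226Y). With the surrogate variables none of these 4 passed (adjusted p from 0.241 to 0.5).

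The machinery that folds procollagen showed 3 called genes of 18 tested, all lower, with a list median of 0.04. *Serpinh1*, the collagen chaperone HSP47, fell by 0.36 (standard error 0.11, adjusted p = 0.0373). *P3h3*, a prolyl 3-hydroxylase family member, fell by 0.35 (standard error 0.10, adjusted p = 0.0270), and *Plod3*, a lysyl hydroxylase, by 0.17 (standard error 0.05, adjusted p = 0.0479). All 10 A226Y mice were under the WT mean for each. The calls were lost in 10, 4 and 14 of the 18 fits that left out 1 mouse. For *P3h3* these were the fits without A226Y animal 11 or WT animal 14, 21 or 24, and the highest adjusted p was 0.0637 without WT animal 21. For *Serpinh1* it was 0.0884 without WT animal 14 and for *Plod3* 0.0965 without WT animal 21. With the correction for GC content the adjusted p-values of *Serpinh1*, *P3h3* and *Plod3* were 0.0583, 0.0588 and 0.221. *P4hb* and *Mia3*, the most abundant of the list, had log2 fold changes of 0.04 and 0.03.

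Among 10 tested genes of procollagen cleavage and crosslinking, *Pcolce2*, an enhancer of C-propeptide removal, was the only one called (−0.68, standard error 0.21, adjusted p = 0.0378), and its call was lost in 13 of the 18 fits without 1 mouse, with an adjusted p of up to 0.0846 without WT animal 21. With the surrogate variables it had −0.10 (adjusted p = 0.847). *Bmp1*, the C-proteinase itself, had −0.20 (adjusted p = 0.0610) and *Pcolce* −0.40 (adjusted p = 0.15, and −0.22 without WT animal 33), and the list median was −0.12. Without A226Y animal 29 or WT animal 6, 3 genes of this list were called. Of 10 tested genes of collagen breakdown 2 were called, both lower, with a median of −0.11. *Mmp15*, a membrane-bound metalloproteinase, fell by 0.67 (standard error 0.13, adjusted p = 0.00439) and *Mmp19* by 0.40 (standard error 0.08, adjusted p = 0.00326). *Mmp14*, also membrane-bound and able to cleave fibrillar collagen, had 0.25 (adjusted p = 0.0886), and passed as higher with the GC correction (0.30, adjusted p = 0.0310).

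Other small leucine-rich proteoglycans, the family of *Dcn*, had 1 called gene of 10 tested and a median of −0.06. It was *Omd*, named here after its value was seen, with 0.325 CPM in WT and 0.795 CPM in A226Y as medians (1.04 on the log2 scale, adjusted p = 0.0147). *Bgn*, the closest relative of *Dcn*, had −0.06 (adjusted p = 0.643) and *Tsku* −0.27 (adjusted p = 0.385). Basement membrane partners of type IV collagen had 2 called genes of 16, both laminin chains and both higher, with a median of 0.13. *Lama5* rose by 0.41 (standard error 0.13, adjusted p = 0.0358) and *Lamc3* by 0.89 (standard error 0.27, adjusted p = 0.0330), each call being lost in 9 of the 18 fits without 1 mouse, with adjusted p-values of up to 0.0761 (without WT animal 14) and 0.0586 (without A226Y animal 11). With the correction for transcript length they were 0.179 and 0.0574. *Sparc* and *Agrn* had −0.14 (adjusted p = 0.186) and −0.13 (adjusted p = 0.228), and with the correction for transcript length *Agrn* was called as lower (−0.24, adjusted p = 0.0316).

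TGF-beta and PDGF drive collagen output and proliferation of stellate cells. Of 24 tested genes of these pathways 2 were called, both receptors and both higher, with a median of 0.05. *Tgfbr1*, the type I TGF-beta receptor, rose by 0.29 (standard error 0.07, adjusted p = 0.00866), from a median of 34.3 to 43.2 CPM. *Pdgfra*, a PDGF receptor of mesenchymal cells, rose by 0.45 (standard error 0.10, adjusted p = 0.00827), from a median of 7.32 to 10.4 CPM, and each of the 10 A226Y mice exceeded the WT mean. With the surrogate variables *Tgfbr1* had 0.21 (adjusted p = 0.139) and *Pdgfra* 0.16 (adjusted p = 0.436). *Smad4*, the shared Smad, had 0.18 (adjusted p = 0.0599), and *Ltbp4*, which tethers latent TGF-beta, had −0.24 (adjusted p = 0.110). Without WT animal 6 or A226Y animal 29, 4 genes of the list were called.

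All 18 further stellate cell markers had reads in all 18 mice. Of these, 2 were called, 1 in each direction, and the median was −0.11. *Angptl6*, an angiopoietin-like secreted factor, fell by 0.52 (standard error 0.08, adjusted p = 0.000932), and every A226Y mouse (14.04 to 19.97 CPM) was below every WT mouse (20.5 to 31.6 CPM). *Hgf*, the hepatocyte growth factor that stellate cells supply, rose by 0.34 (standard error 0.09, adjusted p = 0.0207, and 0.0713 with the correction for GC content). The call of *Angptl6* held in all 29 alternatives, and it was the only called gene of the lists that also passed with the surrogate variables (adjusted p = 0.0419). Beside *Pdgfra* and *Pcolce2*, the estimate shrank by over 1.5 times in that fit for *Col27a1* (−0.83), *Col14a1* (−0.14), *Col18a1* (−0.17), *Col4a5* (0.50), *Serpinh1* (−0.21), *Plod3* (−0.09), *Mmp15* (−0.36), *Mmp19* (−0.24), *Omd* (0.65), *Lama5* (0.26), *Ccn2* (0.49), *Clec4f* (−0.35), *Apob* (0.18) and *Asgr1* (−0.17). Named after their values were seen, *Lrat*, which esterifies retinol for storage, had −0.17 (adjusted p = 0.260) and *Reln*, reelin, 0.0026 (adjusted p = 0.989). The summed level of the 18 markers was 498 to 632 CPM in WT and 482 to 557 CPM in A226Y.

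Myofibroblast activation genes had 2 called of 11 tested, both higher, with a median of −0.03. *Ccn2*, connective tissue growth factor, rose by 0.94 (standard error 0.28, adjusted p = 0.0307), from a median of 14.2 to 29.4 CPM. Its call was lost without WT animal 4, 14, 21, 24 or 28 or A226Y animal 15, and without the last its log2 fold change was 0.78. *Fn1*, fibronectin, which hepatocytes also secrete, had −0.06 (adjusted p = 0.807). *Acta2*, the smooth muscle actin of myofibroblasts and named after its value was seen, stood at a median of 0.527 CPM in WT and 0.563 CPM in A226Y (0.26, adjusted p = 0.499).

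**Figure D4:**
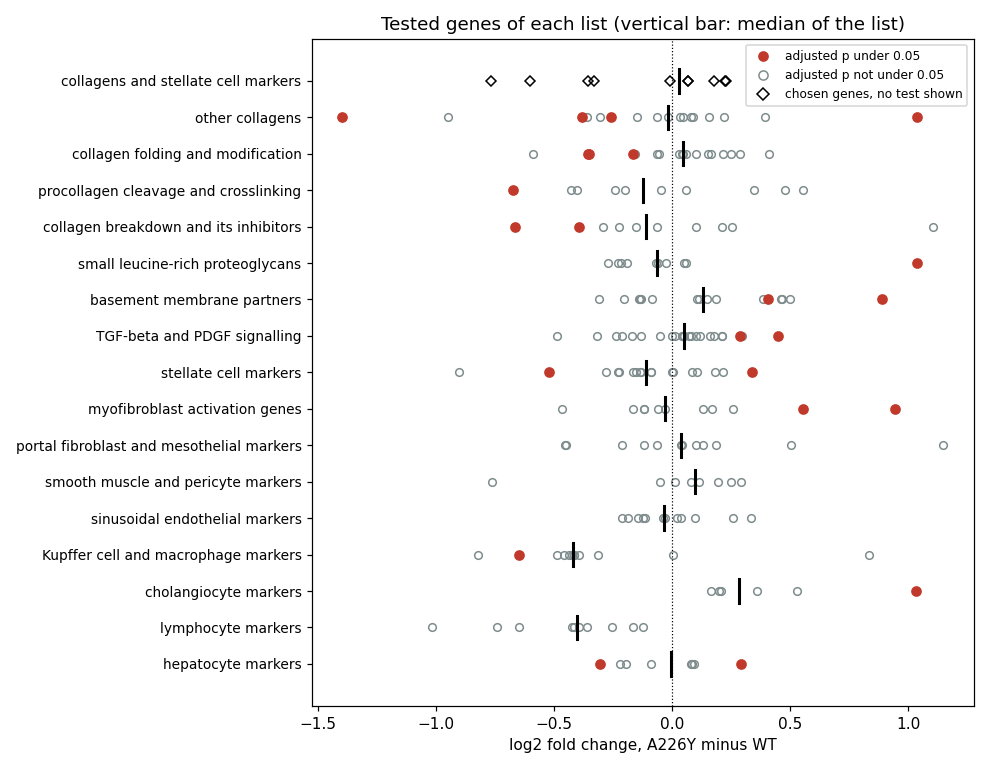
Log2 fold change (A226Y minus WT) of each tested gene, with the 10 chosen genes as diamonds on top and the other lists as circles, filled red where the adjusted p was under 0.05, and a vertical bar at the median of each list. Called genes lie on both sides of 0, and the Kupffer cell and lymphocyte lists have the lowest medians, −0.42 and −0.40.

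Markers of other liver cell types were read in the same way. Of 12 portal fibroblast and mesothelial markers, 8 smooth muscle and pericyte markers and 12 sinusoidal endothelial markers none was called by edgeR. At an unadjusted p under 0.05 there were 1, 1 and 2 genes, and the medians were 0.04, 0.10 and −0.04. *Entpd2* and *Dpt* had −0.12 and 0.04 (adjusted p = 0.664 and 0.902), *Abcc9* and *Tpm2* 0.25 and −0.76 (0.0585 and 0.227), and *Ptprb* and *Clec4g* 0.26 and −0.21 (0.0593 and 0.110). *Abcc9*, a pericyte channel subunit, passed with DESeq2 and without WT animal 6 or A226Y animal 22 or 23, and *Ptprb* with DESeq2 and without WT animal 6 or A226Y animal 7 or 29. With DESeq2 0, 1 and 1 genes of these 3 lists were called, and with limma-voom 0 of each. Lymphocyte markers had none called of 10 by edgeR, DESeq2 or limma-voom (1 in edgeR at an unadjusted p under 0.05) and a median of −0.40, with *Jchain* at −0.74 and *Cd79b* at −0.16 (adjusted p = 0.324 and 0.787). WT animal 33 was the mouse with the highest summed level of this list (101 CPM, against a WT median of 15.1 and an A226Y median of 17.0 CPM), and without it *Jchain* was at −0.10 and *Cd79b* at 0.21.

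Kupffer cell and macrophage markers had a median of −0.42, and 10 of 12 were negative, of which 1 was called, against 2 with DESeq2 (*Clec4f* and *Vsig4*) or limma-voom (*Clec4f* and *Folr2*). *Clec4f*, a Kupffer cell lectin, fell by 0.65 (adjusted p = 0.0261, and 0.0577 without WT animal 14), while *Cd5l* had −0.46 (adjusted p = 0.266), and −0.74 and a call without A226Y animal 29. The surrogate variables brought *Cd5l* to −0.0042, while *Clec4f* stayed negative (−0.35). They moved *Timd4* from −0.32 to 0.11 and *Adgre1* from −0.40 to 0.18, both named after their values were seen. The other markers of the list are not given for that fit. The summed level of the list was 624 to 1200 CPM in WT (median 879) and 415 to 1591 CPM in A226Y (median 560), where 1591 was A226Y animal 29 and the other A226Y mice reached at most 962. The median macrophage level was thus lower in A226Y, as those of the fibrillar collagens were, and its part in their difference was not tested. Of 6 tested cholangiocyte markers 1 was called, *Tspan8*, named after its value was seen (1.03, adjusted p = 0.0107, at a mean of 0.993 CPM), and *Spp1* and *Sox9* had 0.21 and 0.20 (adjusted p = 0.501 and 0.693). *Spp1* had 0.89 and passed with the surrogate variables (adjusted p = 0.0440). Of 8 hepatocyte markers *Apob* rose by 0.29 (adjusted p = 0.0329) and *Asgr1* fell by 0.31 (adjusted p = 0.0155), while *Alb* and *Tf* had 0.08 and −0.09 (adjusted p = 0.781 and 0.508). The call of *Apob* was lost in 8 of the 18 fits without 1 mouse, up to an adjusted p of 0.0737 without WT animal 14, and with the correction for transcript length it was 0.223. The cholangiocyte and hepatocyte medians were 0.28 and −0.0040. Adipose markers were near 0, with *Adipoq* at up to 0.837 CPM and *Plin1* at up to 0.287 CPM, and none was tested.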

How the data were processed

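Liver RNA of 10 A226Y and 8 WT mice was sequenced (1 library each). The authors deposited a table per mouse of raw read counts, whole numbers by Ensembl gene. For how they were made, the sources differ: the submitters' processing notes name bcl2fastq, MultiQC, fastp, STAR, featureCounts and GRCm38, while the paper's methods name RSEM and an earlier build, and strandedness is not given in the sources used here. Of 22524 identifiers, 22291 matched GENCODE M21 (GRCm38), which gave symbols, exon lengths, GC content and positions. Overlapping genes were treated as uncertain.

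A gene was kept where 50% or more of either genotype's mice had 10 or more counts. The 13353 genes kept were fitted with edgeR 4.0.16 in R 4.3.3 (TMM scaling, quasi-likelihood test, two-sided, no covariates, Benjamini-Hochberg adjustment), in which the common biological coefficient of variation was 0.194. A gene was called where its adjusted p-value was under 0.05. CPM uses TMM-scaled library sizes, and RPKM divides it by exon length. Correlations used log2(CPM + 0.1). With at least 23850565 counts per mouse, counting error is small except for the lowest genes. The closest pair of mice within a genotype had a chi-square per degree of freedom of 20.1, so no 2 libraries were alike within sampling noise.

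The 10 genes and the 17 lists, written by hand, were chosen with earlier results of these data known. In each list the text names called genes that averaged 1 CPM or more (at most the 3 highest and 3 lowest log2 fold changes) and the 2 of highest level. Per-length levels ranked the matrix and mesenchymal lists, and CPM the other cell types. It also names the 10 genes closest in pattern to *Col1a1*, *Col1a2* and *Col3a1* and the 5 closest to each of *Dcn*, *Rgs5* and *Des*. Alternatives were RLE size factors, upper quartile and library size only as scaling, 2 other filters, limma-voom 3.58.1, DESeq2 1.42.0, covariates from sva 3.50.0 (4 surrogate variables), loess offsets (pseudocount 0.5, span 0.3) on GC content or transcript length within each library, and leaving out each mouse in turn. Leaving out A226Y animal 29 and WT animal 33 together was chosen after seeing the data. The procedures were tested on simulated counts. A few single genes are not reported here. Promoters came from RefSeq (GRCm38.p6).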

Additional observations from a re-analysis of the deposited data

Results flagged for a closer look

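In each genotype, the highest and lowest mouse of each gene named by the fixed rule was set against its group by the gap to the nearest other mouse, as a share of the group's range (Dixon's criterion). Chance alone exceeds its limit in about 1 of 20 groups. Among the 20 groups of the 10 chosen genes, 1 exceeded it: *Col1a2* in A226Y animal 29, the highest of its group, with a share of 0.605.

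Among 92 groups of the other genes named by the rule, 15 exceeded it, and A226Y animal 29 was the distant mouse in 6 of them: *Pcolce* (0.634), *Mmp14* (0.628), *Clec4f* (0.654), *Cd5l* (0.5), *Alb* (0.588) and *Tf* (0.539). WT animal 33 was the distant mouse for *Pcolce* (0.683), *Fn1* (0.810) and *Tf* (0.549). The others were *Pcolce2* in A226Y animal 5 (0.509), *Mmp19* in WT animal 13 (0.567), *Agrn* in A226Y animal 22 (0.591), *Angptl6* in WT animal 24 (0.551), *Ccn2* in A226Y animal 15 (0.531) and *Abcc9* in WT animal 6 (0.704). *Acta2*, a list gene named after its value was seen, also exceeded it in A226Y animal 23 (0.478). Other genes named outside the rule were not all set against this limit here. The cause of these distances was not tested.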

How the results depend on the processing

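Of the 10 genes, *Col3a1* moved most with the surrogate variables, from −0.60 to −0.27. The mean correlation of *Col1a1*, *Col1a2* and *Col3a1* was 0.660 with library size only and 0.583 to 0.735 with 1 mouse left out. Over all genes 1910 were called, 50 with the surrogate variables (40 of them shared), 2059 with library size only (67.9% higher, against 50.8%), and 1255 (without WT animal 14) to 2560 with 1 mouse left out. With the surrogate variables 0 genes were called in the lists of other collagens, folding, cleavage and crosslinking, breakdown, proteoglycans, basement membrane, TGF-beta and PDGF, and myofibroblast genes, and 1 each in those of stellate cell markers and of cholangiocyte markers (*Spp1*, higher). Folding genes had 1 call with library size only (a higher gene, none of the 3 lower ones), 1 with the length correction (lower, shared), 0 with the GC correction, and 0 to 4 with 1 mouse left out. Cleavage and crosslinking genes had 3 with DESeq2, 2 with the GC correction, 2 without A226Y animal 29 and WT animal 33, and 0 to 3 with 1 mouse left out. Proteoglycans had 0 calls with 10 counts required in every sample. Basement membrane partners had 1 call with limma-voom or without those 2 mice (higher, shared), 1 with the length correction (*Agrn*, lower, neither laminin), and 0 to 3 with 1 mouse left out. TGF-beta and PDGF genes had 4 with library size only, 5 without those 2 mice, and 2 to 4 with 1 mouse left out. Stellate cell markers had 1 with the GC correction. Myofibroblast genes had 1 to 3 and smooth muscle and pericyte markers 0 to 1 with 1 mouse left out, and the latter 1 with library size only or DESeq2. No difference of a called gene changed sign. The cause of these shifts was not tested. No paired analysis was done, because the labels name no litters or other pairs of mice. The low read counts of *Col1a1* and *Col5a2* limit their precision, and nothing in the labels shows that mice were processed in batches.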

Other observations

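Of the 37 collagen genes outside the 10 chosen ones, 20 had too few reads to be tested. No read of *Col11a1* or *Col19a1* was counted in any of the 18 mice. For a single library alone this allows an expected count of up to 3, and over all 18 mice the limit is tighter. Such a limit covers counting error only. The other 18 had at most 138 reads in all mice together, among them *Col25a1* with 138, *Col23a1* with 136, *Col8a1* with 117 and *Col6a6* with 108, all named after their values were seen.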
